A study of Mus musculus with 9 samples.

Results

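Primary tumours grown from 2 mouse mammary carcinoma lines, 66cl4 and 67NR, were compared gene by gene. All arrays whose label names either line were taken, 3 for 66cl4 and 3 for 67NR, which is 6 of the 9 arrays of the series. Each array carries RNA of the primary tumour of 1 female BALB/c mouse aged 7 to 9 weeks. The mice had received 1000000 viable 66cl4/CMVLUC or 67NR/CMVLUC cells in a mammary gland, so both groups share that modification, strain, sex and site. The tumours were excised on day 15, and RNA was prepared from the tumour part of laser-captured sections. Each tumour type rests on 1 cell line, so a difference between tumour types and a difference between these lines cannot be told apart. The 3 arrays of the third line, 4T1, grown in the same way, entered the estimate of the spread between arrays and the choice of genes bright enough to be tested.

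66cl4 and 67NR were derived from 1 spontaneous mammary tumour of the mouse. 67NR forms tumours at the site of injection that do not spread, whereas 66cl4 reaches the lung, and the series asks about the epithelial to mesenchymal transition in that process. In this transition carcinoma cells give up junctions and keratins and take on features of motile mesenchymal cells. A tumour in a mouse with an intact immune system also holds endothelium, pericytes, fibroblasts and leukocytes, and an array sums the RNA of all of them. For every gene below, fewer cells of a type and less RNA per cell cannot be told apart.

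Signals are log2 values as deposited, so that a difference of 1 is a change of 2-fold, and a gene is read from its brightest probe set. The 3 values given for a line follow the replicate numbers of the labels. The medians of the 6 arrays lay between 5.51 and 5.58 and their 75th percentiles between 7.63 and 7.74. Bacterial control probe sets that receive no RNA reached at most 4.83 to 5.07 per array, and a gene at or under this level on all 3 arrays of a line is called not above background. For such a gene the difference is a lower bound, written "at least". Of 18193 genes measured, 13409 were bright enough to be tested. Genes were called by limma with Benjamini-Hochberg adjusted p-values over all of them, and every adjusted p below is of this kind, with n = 3 tumours per line.

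Of the genes tested, 4838 (36.1%) were called, 2686 (20%) higher and 2152 (16%) lower in 66cl4 than in 67NR tumours. These shares are the background for every count of a gene list below. A difference of at least 2-fold together with a call was found for 674 genes (5.03%) higher and 787 genes (5.87%) lower. At 16-fold or more the counts were 26 (0.194%) and 21 (0.157%). Among the called genes, 99 were above background on all 3 arrays of 66cl4 and on none of 67NR, and 138 showed the converse. The 3 values per line did not overlap for 7039 genes (52.5%), with 66cl4 above for 28.8% and below for 23.7%. The median difference over all genes tested was 0.01, and the median size of a called difference was 0.71.

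**Figure D1:**
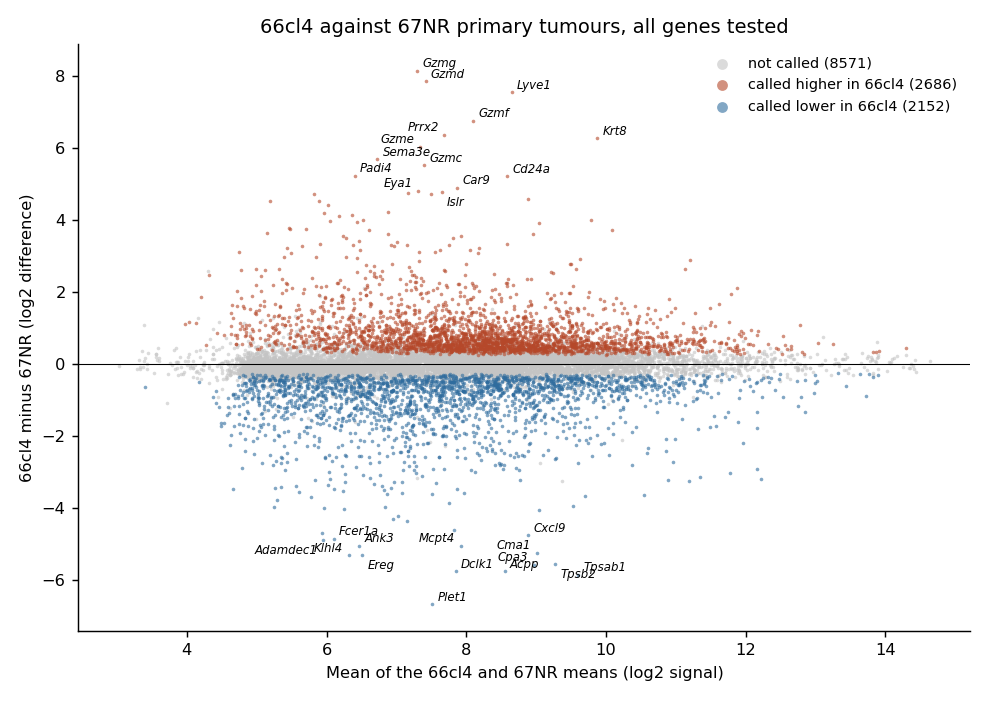
Difference between 66cl4 and 67NR tumours (log2, vertical axis) against the mean log2 signal of both lines (horizontal axis) for the 13409 genes tested, one point per gene. Red points were called higher (2686) and blue points lower (2152) in 66cl4, and the genes with the largest called differences are named, from Gzmg at 8.15 to Plet1 at -6.68.

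The genes with the largest rise in 66cl4 tumours belong to different cell types. The 5 neighbouring granzyme genes Gzmc to Gzmg encode serine proteases of cytotoxic granules, Lyve1 a receptor for hyaluronan that lymphatic endothelium and certain macrophages carry, Prrx2 a homeobox factor of mesenchyme and Krt8 an intermediate filament protein of simple epithelia. Krt8 had 13.08, 13.17 and 12.78 in 66cl4 and 6.70, 6.94 and 6.58 in 67NR tumours. The 6 values fall into 2 tight groups far apart, with a difference of 6.27 ± 0.15 (SE, adjusted p = 3.52e-08). Prrx2 was just as even, at 11.02, 10.71 and 10.88 in 66cl4 and not above background in 67NR (4.69, 4.24 and 4.58), which is at least 60.9-fold higher (adjusted p = 5.12e-07).

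Several genes that were absent or dim in 67NR tumours were bright in 66cl4 tumours. Eya1, a transcriptional coactivator of organ development, had 9.73, 9.03 and 10.42 in 66cl4 against 5.03, 4.69 and 4.99 in 67NR, where 1 of 3 arrays lay above background. Ptprg, a receptor tyrosine phosphatase, had 9.67, 9.67 and 9.30 against 4.61, 4.89 and 4.88, again with 1 of 3 arrays of 67NR above background. The homeobox gene Zfhx4 was at least 9.43-fold, the lipid enzyme gene Acot1 at least 8.73-fold and Pkia, encoding an inhibitor of protein kinase A, at least 9.80-fold higher. Ccnb1ip1, a ubiquitin ligase gene, was at least 11.2-fold and Ppp1r3c, encoding a subunit that directs a phosphatase to glycogen, at least 9.72-fold higher. Dynap was at least 9.29-fold higher and uneven, at 7.72, 9.14 and 7.61 in 66cl4. None of these 66cl4 values overlapped those of 67NR, which the choice of the named genes required.

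The genes that were bright in 67NR and dim in 66cl4 tumours include mast cell genes, described below, and genes of other kinds. Plet1, a surface protein of epithelial progenitors, had 10.33, 11.17 and 11.03 in 67NR and was not above background in 66cl4 (4.35, 3.97 and 4.19), at least 61.2-fold lower. Its 2 other probe sets differed by -5.89 and -0.29, and the latter did not pass (adjusted p = 0.198 over all probe sets). Klhl4 was nearly constant in 67NR, at 8.93, 8.99 and 9.01, and at least 16.8-fold lower in 66cl4 (adjusted p = 3.52e-08). The cytoskeletal adaptor gene Ank3 was not above background in 66cl4 either. Rassf6, of the Ras association family, was at least 10.3-fold and the signalling regulator gene Rgs20 at least 8.28-fold lower. A dimmer probe set of Rgs20 differed by -0.13 and did not pass (adjusted p = 0.432 over all probe sets). Zfp423, a zinc finger factor of the adipocyte lineage, had 8.57, 9.05 and 8.85 in 67NR against 4.82, 4.76 and 4.93 in 66cl4, with 1 of 3 arrays of 66cl4 above background (-3.99 ± 0.13, adjusted p = 2.1e-07). Dclk1, a microtubule-associated kinase, and Acpp, an acid phosphatase, were lower by more, at -5.77 ± 0.30 and -5.76 ± 0.31. For Dclk1, 1 of 3 arrays of 66cl4 lay above background.

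**Figure D2:**
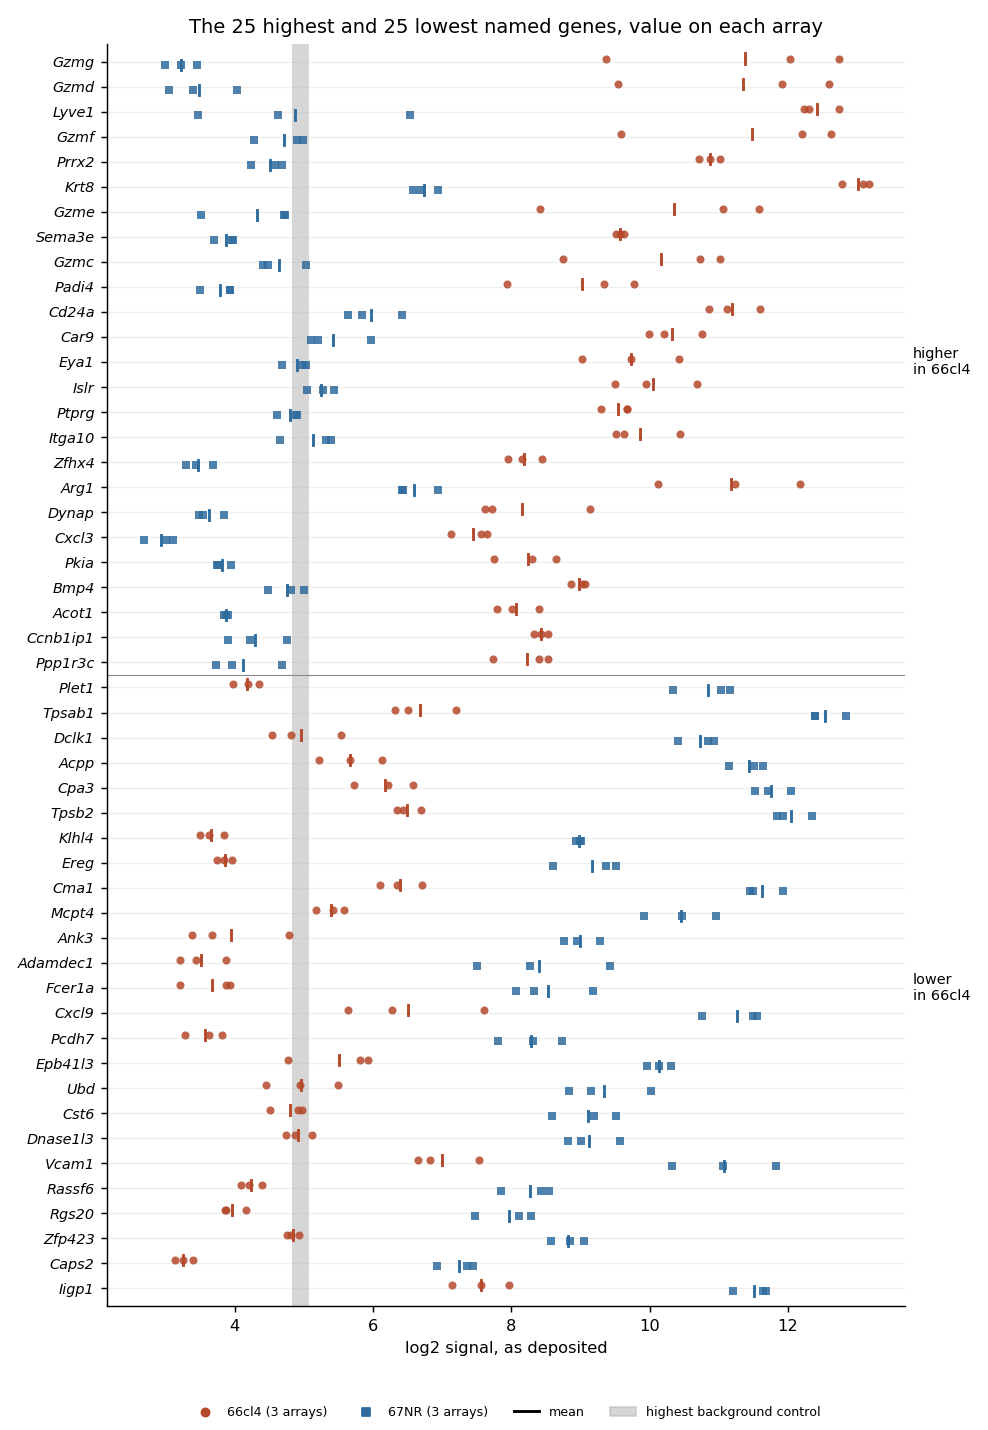
Log2 signal on each array (horizontal axis) for 25 named genes that rose most and 25 that fell most in 66cl4, one row per gene, circles for 66cl4, squares for 67NR and short bars for means. The grey band spans the highest background control of the 6 arrays (4.83 to 5.07). All rows are free of overlap between lines because only such genes were chosen, and the granzyme genes spread most within 66cl4.

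The epithelial state differed gene by gene. Of 10 keratin genes tested, 1 was higher and 1 lower in 66cl4. Krt18, which encodes the partner of keratin 8 in filaments, averaged 5.47 ± 0.46 in 66cl4 and 4.77 ± 0.54 in 67NR tumours (SD, n = 3). The values of the lines overlap and did not pass the test (0.70 ± 0.28, adjusted p = 0.0773). All 3 probe sets of Krt8 gave differences of 6.27 to 6.43. Cdh1, encoding E-cadherin of epithelial junctions, was not above background on any of the 6 arrays (3.92 to 4.45), and Epcam lay at 6.86 to 7.27 in 66cl4 and 6.99 to 7.50 in 67NR. Of these epithelial markers, Cdh1 RNA was thus at background in both tumours and Epcam overlapped between the lines. Krt18 did not pass, and Krt8 was bright in 66cl4. Krt20 was not above background in 66cl4, at least 2.25-fold lower.

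Genes of tight junctions, the seals between epithelial cells, were higher for 7 and lower for 0 of 18 members tested, while their median difference was -0.05. Those higher were Cldn6 by 2.44 ± 0.32, Cldn9 by 2.07 ± 0.42, Cgnl1 by 2.06 ± 0.16, Cgn, Pard3, Pard6b and Cldn12. Cgnl1, encoding a scaffold of the apical junction, had 9.43, 9.46 and 9.31 in 66cl4 against 7.23, 7.26 and 7.54 in 67NR tumours. The dimmest probe set of Cgnl1 did not pass (-0.16, adjusted p = 0.455 over all probe sets). Pard6b was not above background on any array, so its call gives no level. The junction genes Ocln, Tjp1, Cldn3, Cldn4 and Cldn7 did not pass. With the second brightest probe set per gene, 4 of 15 members were higher.

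Desmosomes, which anchor keratin filaments, changed in 1 component each way. Pkp2, encoding a plaque protein, had 7.91, 8.18 and 8.04 in 66cl4 and was not above background in 67NR (3.68, 3.95 and 4.56), at least 8.59-fold higher (adjusted p = 1.45e-06). Jup, encoding plakoglobin, was lower by -0.66 ± 0.18 (adjusted p = 0.0179). Its call was lost without 66cl4 replicate 2 (-0.59, adjusted p = 0.0653), without 67NR replicate 1 (-0.64, 0.0549) and without 67NR replicate 3 (-0.64, 0.055). Dsp, Dsg2 and Perp were not above background in either tumour. Itgb4, the hemidesmosome integrin subunit of epithelial cells, had 8.51, 8.56 and 8.39 in 66cl4 against 5.63, 6.53 and 5.85 in 67NR (2.48 ± 0.28, adjusted p = 0.000126). Among integrins as a whole 4 of 16 were higher and 6 lower. The highest was Itga10, a collagen receptor subunit, at 4.73 ± 0.27 with 2 of 3 arrays of 67NR above background, and the lowest were Itga1, a further collagen receptor subunit, at -1.43 ± 0.15 and the fibronectin receptor subunit Itga5 at -1.24 ± 0.22.

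Regulators and surface genes of epithelia were higher for 4 and lower for 2 of 19. Cd24a, a surface protein of luminal mammary cells and of B cells, had 11.12, 10.85 and 11.59 in 66cl4 against 5.64, 5.84 and 6.42 in 67NR tumours. All 3 of its probe sets differed by 4.78 to 5.22. Klf5, a factor of epithelial progenitors, was higher by 2.21 ± 0.20, the protease inhibitor gene Spint2 by 1.72 ± 0.20 and Gata3, a luminal factor, by 1.43 ± 0.12. Esr1, encoding the oestrogen receptor alpha, had 9.10, 8.82 and 8.81 against 7.01, 6.72 and 7.03 (1.99 ± 0.16, adjusted p = 1.65e-05). Grhl2 and St14, genes of epithelial identity and its surface proteases, were lower by -0.78 ± 0.18 and -0.59 ± 0.16. The call of St14 was lost without 66cl4 replicate 2 (-0.49, adjusted p = 0.0657), and the 2 other probe sets of Grhl2 did not pass. Of B cell genes, 0 of 8 were called by limma, and 3 were lower with the 6 arrays alone. Their part in the level of Cd24a was not tested.

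The transcription factors linked to the mesenchymal transition were higher for 3 and lower for 7 of 23. The paired homeobox genes Prrx1 and Prrx2, which act in limb and craniofacial mesenchyme, went opposite ways. Prrx1 had 8.24, 8.19 and 8.09 in 66cl4 against 9.52, 10.00 and 9.83 in 67NR tumours (-1.61 ± 0.31, adjusted p = 0.00299), and Prrx2 was at least 60.9-fold higher, as given above. Snai1, a repressor of E-cadherin, had 5.10, 5.31 and 4.67 in 66cl4 and averaged 8.20 ± 0.21 (SD) in 67NR (-3.17 ± 0.22, SE), with 2 of 3 arrays of 66cl4 above background. The T-box genes Tbx3 and Tbx2 were not above background in 66cl4, at least 1.95-fold and at least 1.67-fold lower. Foxc1 was higher by 1.84 ± 0.21 and Etv4 lower by -1.32 ± 0.23. With the second brightest probe set, 2 were higher and 3 lower of 21. Of 17 mesenchymal genes, 0 were higher and 6 lower. Vim and Fn1 did not pass, with all 6 values of Vim between 13.89 and 14.14, and Cdh2, encoding N-cadherin, did not pass (adjusted p = 0.0615), although its lines did not overlap.

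Of 25 endothelial genes, all tested, 24 were lower and 1 higher in 66cl4 tumours, with a median difference of -1.83 against 0.01 over all genes. Cdh5, encoding the cadherin of endothelial junctions, had 7.23, 7.04 and 7.37 in 66cl4 and 9.76, 9.30 and 9.37 in 67NR tumours (-2.26 ± 0.14, adjusted p = 4.23e-06). Kdr, a receptor for vascular endothelial growth factor, had 6.80, 6.84 and 6.84 against 8.58, 8.52 and 8.54 (-1.72 ± 0.12). The replicates of both genes were close together and the lines did not overlap. Further down were the tight junction gene Cldn5 at -2.62 ± 0.30, the sialomucin gene Emcn at -2.42 ± 0.15 and the angiopoietin receptor homologue Tie1 at -2.27 ± 0.21. The single gene that was higher was Vwf, encoding von Willebrand factor, at 5.92, 6.22 and 6.45 against 5.84, 5.23 and 5.73 (0.60 ± 0.18, adjusted p = 0.0268). Its call was lost without 66cl4 replicate 2 (0.59, adjusted p = 0.071), without 66cl4 replicate 3 (0.47, 0.0948) and without 67NR replicate 2 (0.41, 0.09).

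Pericytes and smooth muscle cells, which coat vessels, followed with 11 of 16 genes lower and 0 higher (median -1.14). Rgs5, a pericyte regulator of G protein signalling, had 9.44, 9.21 and 10.30 in 66cl4 against 12.05, 12.17 and 12.02 in 67NR tumours (-2.43 ± 0.37, adjusted p = 0.000723). Kcnj8 and Abcc9, which form a potassium channel of pericytes, were lower, Abcc9 by -2.81 ± 0.24 and Kcnj8 from 9.70, 9.55 and 9.63 in 67NR to 6.51, 6.31 and 7.04 in 66cl4, and Mcam by -2.15 ± 0.16. The contractile genes Acta2, Tagln and Cnn1, which smooth muscle shares with activated fibroblasts, did not pass, at -0.19 ± 0.32, 0.50 ± 0.37 and -0.15 ± 0.23, and Cnn1 was not above background on any array. Of 5 lymphatic endothelial genes tested, 3 were lower and 1 higher. Among them Flt4 and Pdpn were lower by -1.59 ± 0.16 and -2.20 ± 0.38, against a rise of Lyve1 by 7.55 ± 0.62. Prox1, the defining factor of lymphatic endothelium, was not bright enough to be tested.

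Ligands and receptors of vessel growth were higher for 3 and lower for 10 of 22. Among ligands, Vegfa had 6.66, 7.95 and 6.70 in 66cl4 and 9.02, 9.52 and 8.79 in 67NR tumours (-2.01 ± 0.44, adjusted p = 0.00562). Vegfc, a ligand for lymphatic growth, went the other way, at 7.46, 7.23 and 8.04 in 66cl4 and not above background in 67NR (3.52, 3.87 and 4.12), at least 6.22-fold higher. All 3 probe sets of Vegfc differed by 3.08 to 3.74. Angpt2 and Pdgfb, which endothelial cells release to loosen and to recruit pericytes, were lower by -1.48 ± 0.21 and -1.57 ± 0.28. Thbs1 and Thbs2, encoding secreted inhibitors of vessel growth, were higher by 2.79 ± 0.26 and 3.32 ± 0.39. Thbs1 had 11.13, 10.45 and 11.04 in 66cl4 against 8.51, 7.98 and 7.77 in 67NR.

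The Notch pathway, through which neighbouring cells signal and which sets arterial and tip cell identity in vessels, was lower for 10 and higher for 1 of 19 genes (median -0.37). Among ligands, Dll4 had 6.19, 5.90 and 6.31 in 66cl4 against 8.29, 8.02 and 8.39 in 67NR tumours (-2.10 ± 0.13, adjusted p = 4.52e-06), and Jag1 was lower by -1.13 ± 0.12. Among receptors, Notch4 of endothelium and Notch3 of pericytes were lower by -2.53 ± 0.20 and -2.02 ± 0.28, and Notch1 by -1.23 ± 0.12. Notch2 was higher by 0.61 ± 0.18, but its second probe set was not (-0.13, adjusted p = 0.531 over all probe sets). Its call was lost without 66cl4 replicate 1 (0.61, adjusted p = 0.0684), without 66cl4 replicate 2 (0.56, 0.0859), without 67NR replicate 2 (0.63, 0.063) and without 67NR replicate 3 (0.49, 0.101). Targets moved less, with Hey1 at -0.64 ± 0.13 and Heyl at -0.81 ± 0.17 called and Hes1 at -0.37 ± 0.14 not (adjusted p = 0.0623). Endothelial and pericyte markers were lower in the same tumours, and their part in the Notch result was not tested.

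Basement membrane genes were lower for 7 and higher for 3 of 14 laminin and nidogen genes, and the main chains of type IV collagen, Col4a1 and Col4a2, were lower by -1.35 ± 0.13 and -1.81 ± 0.13. Col4a2 had 10.50, 10.19 and 10.57 in 66cl4 against 12.41, 12.09 and 12.20 in 67NR tumours. Col4a5, a chain of specialised basement membranes, was called higher (1.97 ± 0.64, adjusted p = 0.0356), and that call was lost without any 1 of the 6 arrays (1.90 to 2.08, adjusted p = 0.0705 to 0.0921). Nid1, which links laminin to collagen IV, was lower by -2.19 ± 0.19, Lama4, the laminin chain of vessel walls, by -1.58 ± 0.17 and Nid2 by -1.47 ± 0.21. Lama5, a laminin chain of epithelia, was higher by 0.88 ± 0.13. Vessel genes were lower in the same tumours, and their part in these differences was not tested.

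Among 22 collagen chains 6 were higher and 6 lower. The fibril collagen gene Col1a2 had 10.71, 11.74 and 10.70 in 66cl4 against 9.52, 8.61 and 9.56 in 67NR tumours (1.82 ± 0.41, adjusted p = 0.0066). Col1a1 (1.34 ± 0.42) and Col3a1 (1.09 ± 0.31) were also higher, most on 66cl4 array 2 and least on 67NR array 2. Without 66cl4 replicate 2 neither passed (0.95 and 0.79, adjusted p = 0.116 and 0.0632). Both were also lost without 67NR replicate 1 (adjusted p = 0.0772 and 0.0507) and without 67NR replicate 2 (0.114 and 0.0761), and the count of chains that were higher was 2, 3 and 2 in the 3 settings. Col14a1, a fibril-associated collagen, rose by 2.96 ± 0.32 with 1 of 3 arrays of 67NR above background. Col6a3, a chain of the microfibrillar collagen around cells, had 8.62, 9.08 and 8.63 in 66cl4 against 11.70, 11.23 and 10.97 in 67NR (-2.52 ± 0.33, adjusted p = 0.000341). Serpinh1, encoding the collagen chaperone, was lower by -2.07 ± 0.25 in the same tumours.

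Small leucine-rich proteoglycans and matricellular proteins, which bind collagen and growth factors, were higher for 9 and lower for 5 of 24. Ogn, encoding osteoglycin, had 11.93, 10.97 and 12.47 in 66cl4 against 8.01, 7.38 and 7.95 in 67NR tumours (4.01 ± 0.32, adjusted p = 1.8e-05). Lum, encoding lumican, was higher by 3.10 ± 0.46 and Thbs3 by 1.85 ± 0.25. Sparcl1 and Ccn3 were lower, the former by -2.19 ± 0.20 and the latter at least 2.61-fold and not above background in 66cl4. Fibroblast genes were higher for 6 and lower for 4 of 18, and both counts fell to 3 without 66cl4 replicate 2 and without 67NR replicate 2. Islr, a marker of mesenchymal stroma, had 10.68, 9.95 and 9.50 in 66cl4 against 5.44, 5.04 and 5.28 in 67NR (4.79 ± 0.43). Pdgfra, the general fibroblast receptor, did not pass (0.23 ± 0.22), and the stromal gene Cd34 and the fibulin gene Fbln1 were lower by -1.95 ± 0.26 and -2.60 ± 0.28. For Fbln1, 2 of 3 arrays of 66cl4 lay above background and its dimmest probe set did not differ (0.00, adjusted p = 0.987 over all probe sets).

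Matrix proteases and their inhibitors were higher for 1 and lower for 4 of 18. Mmp3, encoding stromelysin, had 6.67, 7.22 and 6.72 in 66cl4 against 9.16, 9.46 and 10.00 in 67NR tumours (-2.67 ± 0.42, adjusted p = 0.000863). The inhibitor gene Timp3 had 7.25, 7.34 and 7.58 against 10.86, 9.82 and 9.27 (-2.60 ± 0.54). Reck, a membrane-bound inhibitor of these proteases, was the gene that was higher, by 1.59 ± 0.20. The gelatinase genes Mmp2 and Mmp9 and the membrane protease gene Mmp14 did not pass, at -0.11 ± 0.40, 0.40 ± 0.50 and 0.04 ± 0.17.

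**Figure D3:**
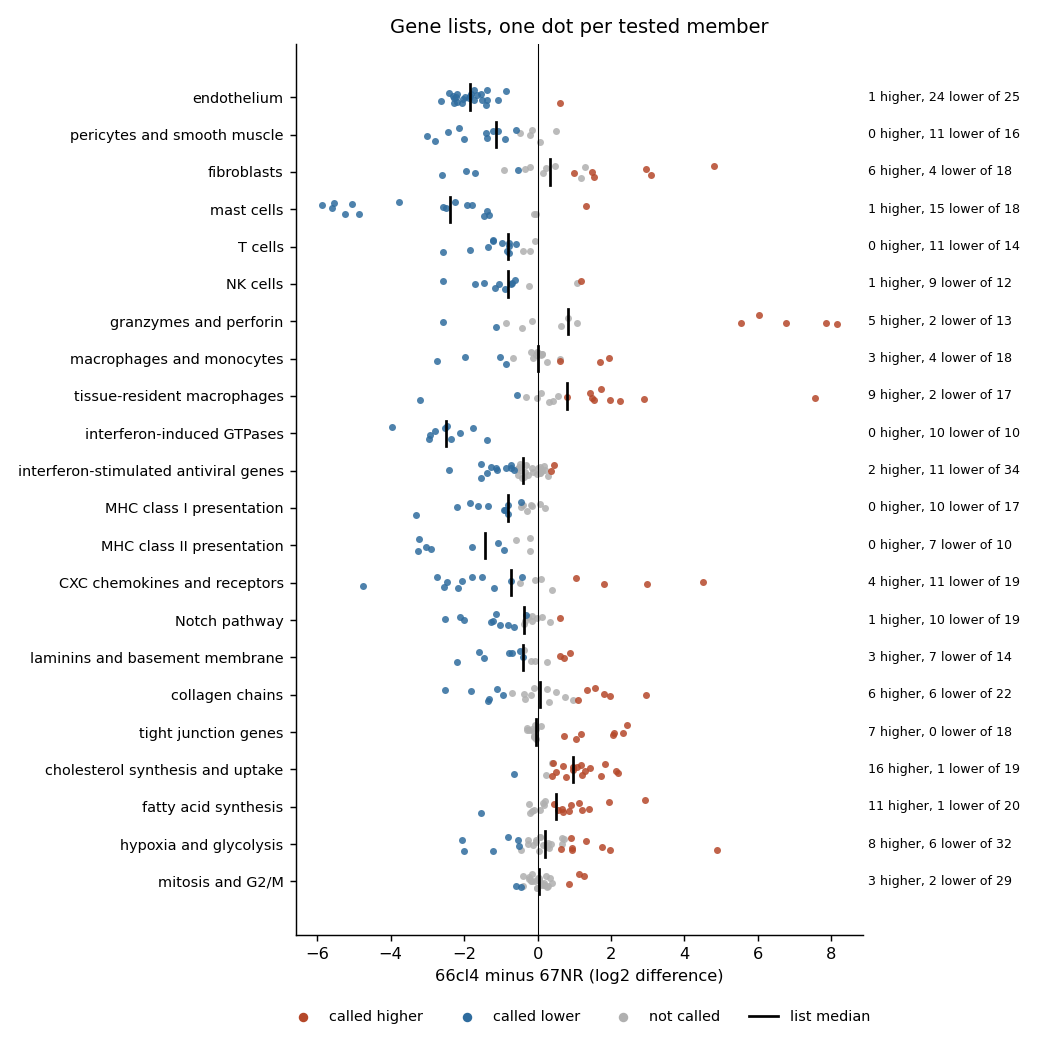
Difference between 66cl4 and 67NR tumours (log2, horizontal axis) for the tested members of 22 gene lists, one dot per gene, red for called higher, blue for called lower, grey for not called and a black bar for the list median. Endothelial genes (24 of 25 lower) and interferon-induced GTPases (10 of 10 lower) lie left of 0, cholesterol synthesis (16 of 19 higher) right of it.

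Mast cell genes were lower for 15 and higher for 1 of 18 members tested, with a median difference of -2.38, or -1.69 with genes not above background at their bound. Mast cells store tryptases, chymases and carboxypeptidase in granules and carry the high-affinity IgE receptor. The tryptase gene Tpsb2 had 6.43, 6.70 and 6.35 in 66cl4 and 11.85, 11.92 and 12.35 in 67NR tumours, and the chymase gene Cma1 had 6.10, 6.71 and 6.35 against 11.46, 11.49 and 11.94. Both lay far above background in 67NR and still above it on all 3 arrays of 66cl4. The carboxypeptidase gene Cpa3 was lower by -5.59 ± 0.27 and Mcpt4, a further chymase, by -5.06 ± 0.24. Fcer1a, the receptor chain that binds IgE, was not above background in 66cl4, at least 12.3-fold lower, and Ms4a2, its signalling partner, at least 2.48-fold lower. Tpsab1 and Tpsb2 are close homologues that may share probes.

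The growth factor for these cells and its receptor moved the same way. Kit had 6.37, 6.18 and 6.42 in 66cl4 against 9.14, 8.86 and 8.70 in 67NR tumours (-2.58 ± 0.13, adjusted p = 1.68e-06). Kitl, encoding stem cell factor, had 10.11, 9.73 and 10.01 against 11.91, 12.10 and 12.06 (-2.07 ± 0.46, adjusted p = 0.00611). Mcpt8, a protease gene of basophils, was the member that was higher, by 1.31 ± 0.45, with 1 of 3 arrays of 67NR above background. Its call was lost without 66cl4 replicate 1 (1.27, adjusted p = 0.106), without 66cl4 replicate 2 (1.03, 0.154) and without each of 67NR replicates 1 to 3 (1.45, 1.15 and 1.32, adjusted p = 0.0683, 0.136 and 0.102).

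The guanylate-binding and immunity-related GTPases, which interferons induce, were lower in 66cl4 tumours for all 10 members tested. These proteins attack the membranes around intracellular pathogens and are classical targets of interferon gamma. For 6 of the 7 members with a RefSeq promoter, cores of the response element that IRF factors bind lie close to the start site. The windows around these cores are printed for the 6 members.

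The letters GAAA, any 2 bases and again GAAA were searched on both strands in the 250 bases before and 50 after each start (RefSeq, GRCm38.p6). Of the 10 GTPase genes 7 had a promoter sequence, and 6 of these 7 (85.7%) held the core, against 388 of 10754 tested genes with a promoter (3.61%). The windows lie at chr3:142620564-142620653, chr3:142559959-142560043, chr3:142530243-142530332, chr11:58199482-58199555 and chr11:58214873-58214962 on the plus strand and chr11:48871421-48871490 on the minus strand. Each is written 5′ to 3′ along its gene, upstream of the start, with the core in capitals, which begins and ends with TTTC where it lies on the other strand.
Gbp2: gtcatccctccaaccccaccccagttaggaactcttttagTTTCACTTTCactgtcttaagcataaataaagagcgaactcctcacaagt
Gbp3: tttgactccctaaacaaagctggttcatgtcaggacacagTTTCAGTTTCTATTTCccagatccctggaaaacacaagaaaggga
Gbp7: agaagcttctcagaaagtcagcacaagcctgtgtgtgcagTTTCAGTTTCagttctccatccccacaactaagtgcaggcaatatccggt
Igtp: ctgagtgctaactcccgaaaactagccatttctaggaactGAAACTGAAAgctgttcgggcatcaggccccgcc
Irgm1: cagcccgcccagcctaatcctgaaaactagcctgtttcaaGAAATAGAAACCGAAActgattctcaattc
Irgm2: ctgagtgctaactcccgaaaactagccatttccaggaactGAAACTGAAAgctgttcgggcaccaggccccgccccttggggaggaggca
The core ended 50 bases before the start in Gbp2, 44 in Gbp7, 25 in Igtp and 55 in Irgm2, and Gbp3 and Irgm1 held 2 overlapping cores each. The windows of Igtp and Irgm2 are identical at 72 of their first 74 bases. The letters TTC, any 3 bases and GAA, a site of STAT factors, were in 3 of the 7 promoters (42.9%). Over all tested genes they were in 892 of 10754 (8.29%). A match of letters does not show that a factor was bound.

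All 10 GTPase genes tested were lower, with a median difference of -2.50. Gbp3 had 7.14, 7.11 and 7.62 in 66cl4 and 10.41, 10.33 and 9.96 in 67NR tumours (-2.94 ± 0.16, adjusted p = 2.5e-06). Igtp was lower by -2.46 ± 0.21, Gbp7 by -2.53 ± 0.17 and Irgm2 by -2.35 ± 0.22. The smallest difference was that of Irgm1, at -1.38 ± 0.18 (adjusted p = 0.000285), and the largest that of Iigp1, at 7.56, 7.14 and 7.97 against 11.68, 11.64 and 11.20 (-3.95 ± 0.21). Every one of the 10 was above background on all 6 arrays. The Gbp genes are close homologues, so that probes may be shared among them.

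Antiviral genes, which type I interferons induce, were lower for 11 and higher for 2 of 34 members (median -0.40), and 21 did not pass. Without 66cl4 replicate 1, without 66cl4 replicate 3, without 67NR replicate 2 and without 67NR replicate 3, 0 members were higher. Zbp1, a sensor of nucleic acids, had 6.66, 6.58 and 6.76 in 66cl4 against 9.05, 9.11 and 9.04 in 67NR tumours (-2.40 ± 0.13, adjusted p = 2.24e-06). Xaf1 was lower by -1.54 ± 0.14, Oasl2 by -1.38 ± 0.15 and Rtp4 by -1.27 ± 0.15. Ifit1, Rsad2, Oas2 and Usp18 did not pass, at -0.47 ± 0.28, -0.50 ± 0.33, -0.56 ± 0.25 and -0.52 ± 0.29. The same core was in 11 of the 24 promoters of this list. For the class I and class II genes described below it was in 3 of 14 and 1 of 7 promoters. Among all genes called lower it was in 84 of 1688 promoters (4.98%). With the second brightest probe set 7 of 31 members were lower.

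Of 28 genes of interferon signalling 10 were lower and 2 higher. The ligand gene Ifng had 6.08, 5.34 and 5.42 in 67NR and was not above background in 66cl4 tumours (3.59, 3.78 and 3.56), at least 1.63-fold lower (adjusted p = 0.00118). Irf1 had 9.71, 9.57 and 9.77 in 66cl4 against 10.77, 10.71 and 10.49 in 67NR (-0.98 ± 0.12, adjusted p = 0.000206), and Irf7 was lower by -1.54 ± 0.26. The receptor genes Ifnar1, Ifnar2 and Ifngr2 did not pass, at 0.10 ± 0.12, 0.14 ± 0.15 and 0.11 ± 0.18. Without 66cl4 replicate 1 and without 67NR replicate 2, 6 of the 28 were lower, and in the latter setting 0 were higher. Casp1, which interferon induces and which processes interleukins, was lower by -2.82 ± 0.15.

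Class I genes, which display peptides of a cell's own proteins, were lower for 10 and higher for 0 of 17 (median -0.79). Tap1, the peptide transporter, had 7.08, 7.08 and 7.10 in 66cl4 against 9.59, 9.13 and 9.13 in 67NR tumours (-2.19 ± 0.16), and Psmb9, a subunit of the immunoproteasome, was lower by -1.85 ± 0.12. B2m, the light chain, was lower by -0.90 ± 0.09 near the top of the signal range. The general chaperones Calr and Pdia3, which also serve other proteins, did not pass (0.08 ± 0.11 and -0.15 ± 0.10).

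Class II genes, which dendritic cells, macrophages and B cells use, were lower for 7 and higher for 0 of 10 (median -1.42). H2-Aa had 9.94, 9.73 and 11.10 in 66cl4 against 13.71, 13.17 and 13.02 in 67NR tumours (-3.04 ± 0.32, adjusted p = 8.77e-05), and Cd74, the invariant chain, had 10.01, 10.33 and 11.79 against 13.86, 13.56 and 13.45. In both genes array 3 was the highest of 66cl4 and still below all of 67NR. Without 66cl4 replicate 3 the difference of Cd74 was -3.45, and without 66cl4 replicate 1 it was -2.56. Dendritic cell genes were lower for 6 and higher for 0 of 11, with Itgax, encoding CD11c, at -2.21 ± 0.33 and the uptake receptor gene Ly75 at -1.36 ± 0.21.

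**Figure D4:**
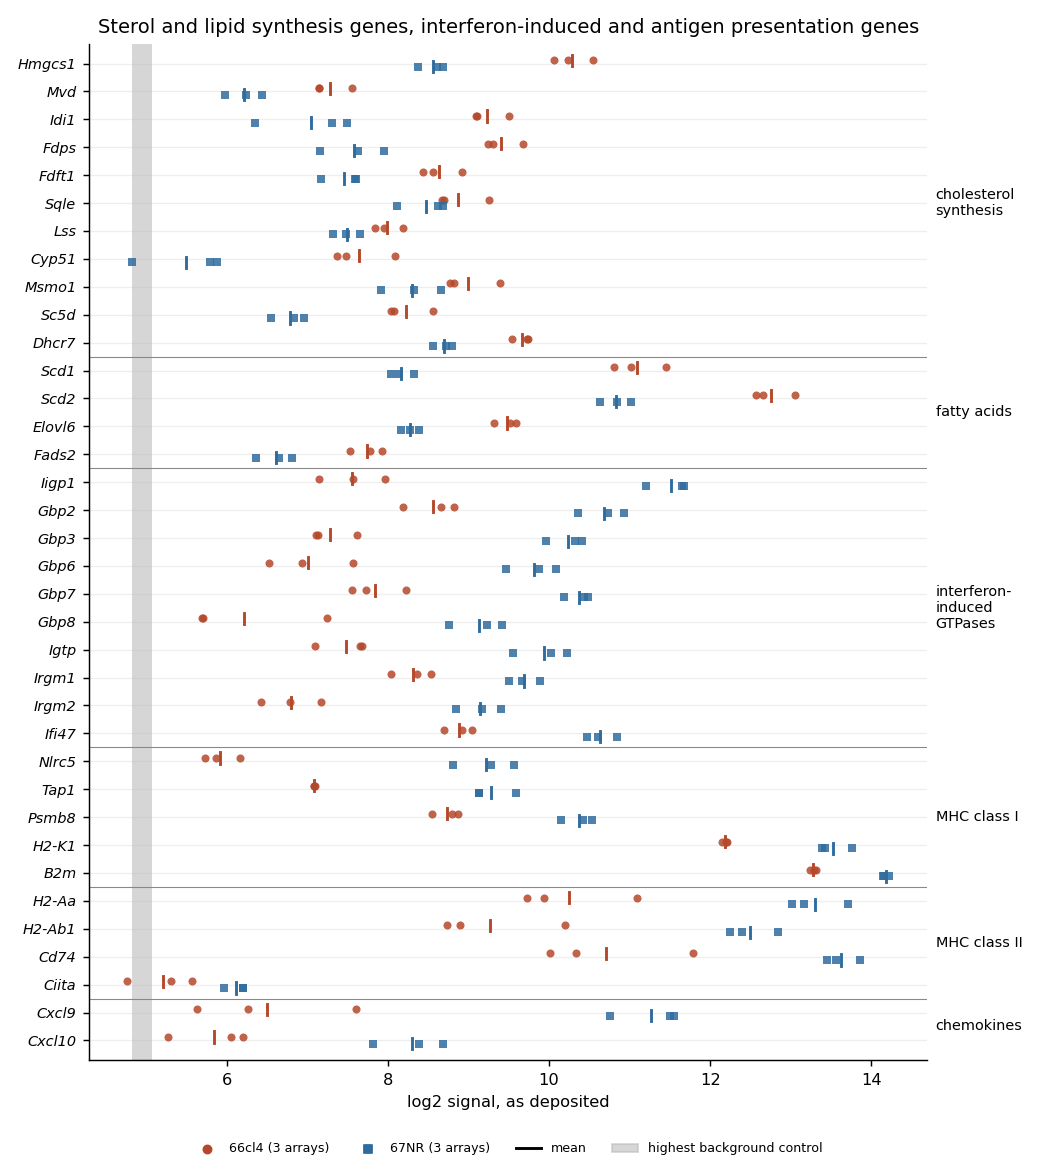
Log2 signal on each array (horizontal axis) of 15 lipid synthesis genes and 21 genes of interferon response and antigen presentation, one row per gene, circles for 66cl4, squares for 67NR, short bars for means and a grey band for the highest background control. In all rows except Sqle, whose values touch, the lines are apart. The lipid genes drawn are higher and the others lower in 66cl4, and array 3 of 66cl4 is the highest circle for H2-Aa and Cd74. The rows are a selection. Not drawn are the lipid genes Me1 and Pmvk, which were lower, and Fasn, Acly, Calr and Pdia3, which did not pass.

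T cell genes were lower for 11 and higher for 0 of 14 (median -0.80). Cd3g, a chain of the T cell receptor complex, had 5.23, 4.62 and 5.77 in 66cl4 against 8.40, 7.26 and 7.66 in 67NR tumours (-2.57 ± 0.37, adjusted p = 0.000579), with 2 of 3 arrays of 66cl4 above background. Cd4 had 6.46, 6.25 and 6.40 against 8.21, 7.67 and 7.29 (-1.36 ± 0.20), and Cd8a was lower by -0.96 ± 0.25. Without 66cl4 replicate 3 and without 67NR replicate 1, 7 of the 14 genes were lower. NK cell genes were lower for 9 and higher for 1 of 12. Nkg7, a granule protein of NK and T cells, and the receptor gene Klrd1 were lower by -1.69 ± 0.23 and -1.45 ± 0.30. Eomes, a factor of both cell types, was higher, at 7.43, 7.48 and 7.26 against 6.23, 6.23 and 6.15 (1.19 ± 0.11, adjusted p = 3.86e-05).

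The granzyme genes Gzmc to Gzmg went against most T and NK cell genes, whereas Gzma was lower with them. Of 13 genes of cytotoxic granules 5 were higher and 2 lower. Gzma, which NK and T cells express, had 7.57, 6.42 and 8.37 in 66cl4 against 10.18, 9.72 and 10.17 in 67NR tumours (-2.57 ± 0.47, adjusted p = 0.0022). The 5 that were higher are the neighbours Gzmc, Gzmd, Gzme, Gzmf and Gzmg. Gzmd had 12.59, 11.91 and 9.54 in 66cl4 and was not above background in 67NR (3.39, 3.05 and 4.03), at least 84.7-fold higher, and Gzmc had 11.02, 10.73 and 8.75 against 4.49, 4.40 and 5.03, at least 37.4-fold. Array 3 of 66cl4 was lowest for all 5 genes, and close homology among them may let probes be shared.

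The same array set the calls of 2 further cytotoxic genes. Gzmb had 10.66, 9.79 and 8.26 in 66cl4 against 8.92, 8.64 and 8.69 in 67NR tumours, and Prf1, the pore protein, 9.24, 8.90 and 6.98 against 7.31, 7.25 and 7.36. With all arrays neither passed (0.82 ± 0.52 and 1.07 ± 0.53, adjusted p = 0.255 and 0.144). Without 66cl4 replicate 3 both did, at 1.47 (adjusted p = 0.0148) and 1.77 (0.0034). The differences of Gzmc and Gzmd without that array were 6.23 and 8.76.

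Macrophage genes as a class were level, with 3 higher and 4 lower of 18 and a median of 0.00. Csf1r, Adgre1 and C1qa, which define the lineage, did not pass, at -0.13 ± 0.17, 0.00 ± 0.24 and 0.00 ± 0.13. Single genes of the list differed in both directions. Itgam, encoding CD11b, had 9.35, 9.88 and 9.07 in 66cl4 against 7.08, 7.62 and 7.78 in 67NR tumours (1.94 ± 0.22, adjusted p = 0.000154), and Cd14, the endotoxin co-receptor, was higher by 1.69 ± 0.27. Cx3cr1, the fractalkine receptor, had 6.93, 7.61 and 6.75 against 9.30, 10.29 and 9.92 (-2.74 ± 0.45), and Aif1 was lower by -1.99 ± 0.23.

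Genes of tissue-resident macrophages were higher for 9 and lower for 2 of 17, with a median of 0.79. Lyve1 had 12.31, 12.74 and 12.23 in 66cl4 against 3.47, 4.63 and 6.53 in 67NR tumours, where 1 of 3 arrays lay above background. F13a1, a clotting factor subunit made by macrophages, had 12.43, 12.85 and 12.71 against 8.83, 9.75 and 10.70 (2.90 ± 0.52, adjusted p = 0.00195). Vsig4, a complement receptor, was higher by 2.24 ± 0.37, the folate receptor gene Folr2 by 1.74 ± 0.40, Fcna by 1.44 ± 0.21 and Cbr2 by 1.49 ± 0.35. For Lyve1, F13a1, Vsig4 and Folr2, array 3 was the highest of 67NR. Ccl8, a chemokine gene of such macrophages, went against the list, at 9.67, 10.27 and 11.91 against 14.07, 13.57 and 13.79 (-3.19 ± 0.63, adjusted p = 0.00326). With the file number of the labels as a covariate 5 were higher and 1 lower.

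Arg1, the enzyme that consumes arginine, had 11.24, 12.17 and 10.13 in 66cl4 against 6.41, 6.94 and 6.44 in 67NR tumours (4.58 ± 0.59, adjusted p = 0.000299). Padi4, which citrullinates histones in neutrophils, had 9.34, 9.77 and 7.94 and was not above background in 67NR (3.93, 3.49 and 3.93), at least 16.9-fold higher. Other neutrophil genes did not accompany Padi4, since of 13 tested only Fpr2 was also higher (1.31 ± 0.34, adjusted p = 0.0144) and S100a8, S100a9, Csf3r and Elane did not pass. The call of Fpr2 was lost without 66cl4 replicate 1 (1.21, adjusted p = 0.0509), without 66cl4 replicate 2 (1.13, 0.0553) and without 67NR replicate 3 (1.08, 0.058). Among immune-suppressive genes Arg1 was the 1 that was higher of 16, and 5 were lower, among them the checkpoint ligand gene Cd274 by -1.36 ± 0.25.

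Of 19 genes of the CXC group 4 were higher and 11 lower (median -0.74). Chemokines guide leukocytes through receptors. The 3 ligands of CXCR3, a receptor of T cells, were lower, Cxcl9 at 6.27, 5.64 and 7.61 in 66cl4 against 11.50, 11.56 and 10.75 in 67NR tumours (-4.76 ± 0.46, adjusted p = 5.6e-05), Cxcl11 by -2.55 ± 0.27 and Cxcl10 by -2.45 ± 0.28. Cxcl3 and Cxcl2, which encode ligands of the neutrophil receptor CXCR2, were among the genes that were higher. In 66cl4 Cxcl3 had 7.12, 7.57 and 7.65, and Cxcl2 had 6.99, 8.84 and 6.20. Neither was above background in 67NR, so Cxcl3 rose at least 5.68-fold and Cxcl2 at least 5.27-fold. Other ligands of this receptor are not described here. The receptor gene Cxcr2 itself did not pass (0.39 ± 0.20). Cxcl12 rose by 1.81 ± 0.32 while its receptor genes Cxcr4 and Ackr3 were lower by -2.07 ± 0.26 and -1.18 ± 0.19. The dimmest probe set of Cxcl12 did not differ (0.05, adjusted p = 0.831 over all probe sets).

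Of 21 CC chemokine genes 2 were higher and 6 lower. Ccl6 and Ccl9, ligands of the myeloid receptor CCR1, had 12.93, 12.97 and 12.87 and 12.44, 12.70 and 12.24 in 66cl4 tumours. In 67NR they had 10.54, 10.74 and 11.19 and 9.45, 9.65 and 10.33, so they were higher by 2.10 ± 0.27 and 2.65 ± 0.42. Ccl5, a T cell chemokine, had 7.05, 7.08 and 8.51 against 10.55, 9.79 and 9.95 (-2.55 ± 0.40, adjusted p = 0.000931). Among 21 cytokines and colony-stimulating factors 3 were higher and 6 lower. Il6 was not above background in 66cl4 (3.69, 4.05 and 3.17) and had 7.12, 7.17 and 6.91 in 67NR, at least 4.47-fold lower. Csf1, the macrophage growth factor, was higher by 1.40 ± 0.15 and the interleukin-1 antagonist gene Il1rn by 2.05 ± 0.35, whereas the alarmin gene Il33 was lower by -2.02 ± 0.42.

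Lipid mediator genes were higher for 7 and lower for 5 of 19. Ptgds, which makes prostaglandin D2, had 10.37, 11.22 and 11.42 in 66cl4 against 7.11, 7.02 and 7.11 in 67NR tumours (3.93 ± 0.24, adjusted p = 3.38e-06). The leukotriene genes Ltc4s, Alox5ap and Alox5 were higher by 2.36 ± 0.38, 1.33 ± 0.16 and 0.96 ± 0.21. Lta4h, which leads to the other leukotriene branch, was lower by -0.36 ± 0.10, and its 2 other probe sets did not pass. Its call was lost without 66cl4 replicate 2 (-0.34, adjusted p = 0.057) and without 67NR replicate 2 (-0.35, 0.0558). The haematopoietic prostaglandin D synthase gene Hpgds, which mast cells express, did not pass (-0.04 ± 0.22).

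Cells build cholesterol from acetyl-CoA through mevalonate, and the factors SREBP1 and SREBP2 switch on its enzymes and those of unsaturated fatty acids. Of 19 genes 16 were higher and 1 lower, with a median difference of 0.97. At the entry, Hmgcs1 had 10.06, 10.54 and 10.24 in 66cl4 against 8.38, 8.61 and 8.68 in 67NR tumours (1.73 ± 0.14, adjusted p = 1.82e-05), and all 4 of its tested probe sets rose by 1.30 to 1.73. In the isoprenoid part, Idi1 had 9.10, 9.50 and 9.09 against 6.36, 7.31 and 7.49 (2.18 ± 0.26) and Fdps rose by 1.83 ± 0.21. In the sterol part, Cyp51 rose by 2.15 ± 0.28 with 2 of 3 arrays of 67NR above background, Sc5d by 1.44 ± 0.21 and Dhcr7 by 0.97 ± 0.15. Sqle, a controlled step, did not pass (0.40 ± 0.19, adjusted p = 0.133). Pmvk was lower by -0.64 ± 0.19, a call lost without 66cl4 replicate 1 (-0.62, adjusted p = 0.0655), without 66cl4 replicate 3 (-0.62, 0.06) and without 67NR replicate 3 (-0.54, 0.0825).

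Fatty acid synthesis was higher for 11 and lower for 1 of 20 genes (median 0.50). Scd1, a desaturase gene, had 11.46, 10.81 and 11.02 in 66cl4 against 8.04, 8.33 and 8.14 in 67NR tumours (2.92 ± 0.22, adjusted p = 1.08e-05) and Scd2 12.56, 12.66 and 13.06 against 11.01, 10.84 and 10.63 (1.93 ± 0.17). Elovl6 and Fads2, which elongate and desaturate, were higher by 1.20 ± 0.13 and 1.13 ± 0.16, and the regulator genes Srebf1 and Srebf2 by 0.56 ± 0.11 and 0.39 ± 0.11. The call of Srebf2 was lost without 66cl4 replicate 1 (0.38, adjusted p = 0.0505) and without 67NR replicate 1 (0.32, 0.0629). The early steps Fasn and Acly did not pass (0.15 ± 0.11 and -0.09 ± 0.15), and Me1, which supplies NADPH, was lower by -1.54 ± 0.16. Scd1, Scd2 and Scd3 are neighbours and close homologues on chromosome 19, in the window of highest median difference described below.

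Hypoxia and glycolysis genes were higher for 8 and lower for 6 of 32. Car9, a carbonic anhydrase that hypoxia induces, had 10.21, 10.76 and 9.99 in 66cl4 against 5.97, 5.21 and 5.10 in 67NR tumours (4.89 ± 0.26, adjusted p = 1.73e-06). The mitophagy gene Bnip3 was higher by 1.98 ± 0.32 and Pdk1, which closes pyruvate entry to mitochondria, by 1.76 ± 0.16. Of the glycolytic enzymes, Pfkp, Ldha and Pgk1 were higher by 1.32 ± 0.14, 0.92 ± 0.13 and 0.91 ± 0.11. Other hypoxia targets did not follow. Vegfa and Ddit4 were lower by -2.01 ± 0.44 and -2.05 ± 0.38, and Slc2a1, Adm and Ndrg1 did not pass, at -0.45 ± 0.24, -0.03 ± 0.27 and -0.27 ± 0.22.

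Among EGF family genes 2 of 9 were higher and 3 lower. Ereg, encoding epiregulin, had 8.61, 9.37 and 9.51 in 67NR and was not above background in 66cl4 tumours (3.85, 3.96 and 3.75), at least 19.1-fold lower, and the ligand gene Btc was lower by -1.92 ± 0.22 with 1 of 3 arrays of 66cl4 above background. The receptor gene Erbb3 was higher by 1.31 ± 0.17, and Egfr did not pass (-0.36 ± 0.16, adjusted p = 0.105). Among FGF genes the feedback inhibitor gene Spry1 had 12.33, 11.61 and 11.90 in 66cl4 and averaged 8.24 ± 0.35 (SD) in 67NR (3.71 ± 0.40, SE, adjusted p = 0.000103). The receptor gene Fgfr1 had 8.73, 9.55 and 8.39 against 10.95, 10.99 and 10.64 (-1.97 ± 0.37).

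In the TGF-beta family, Bmp4 had 8.86, 9.07 and 9.02 in 66cl4 and averaged 4.76 ± 0.26 (SD) in 67NR tumours, where 1 of 3 arrays lay above background (4.22 ± 0.16, adjusted p = 4.38e-07). The BMP target genes Id1 and Id3 were lower, by -0.67 ± 0.15 and -2.03 ± 0.31, and Id2 was higher by 0.91 ± 0.12. Of 26 TGF-beta genes 10 were higher and 4 lower, and with the second brightest probe set 6 and 3 of 24. The ligand gene Tgfb3 was higher by 2.14 ± 0.15, Ltbp4, which holds latent ligand in the matrix, by 2.21 ± 0.34 and the signal transducer gene Smad3 by 1.32 ± 0.13. Inhbb, encoding an activin subunit, was lower by -2.32 ± 0.23. The 4 lower genes became 2 with the hybridization control as a covariate and without 66cl4 replicate 1, without 66cl4 replicate 3, without 67NR replicate 2 and without 67NR replicate 3.

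In the Wnt pathway 8 of 32 genes were higher and 4 lower. The ligand genes Wnt9a and Wnt7b rose by 2.47 ± 0.21 and 2.25 ± 0.24, and Axin2, a target that reports the pathway, had 8.41, 7.68 and 7.41 in 66cl4 against 6.41, 6.14 and 6.06 in 67NR tumours (1.63 ± 0.28, adjusted p = 0.00139). The receptor gene Ror1 was not above background in 66cl4, at least 2.16-fold lower. Guidance genes were higher for 8 and lower for 8 of 31. Sema3e had 9.57, 9.51 and 9.64 and was not above background in 67NR (3.96, 3.97 and 3.70), at least 24.8-fold higher. Ntn1 and Sema3a were higher by 3.33 ± 0.25 and 2.78 ± 0.23, and the related Sema3c was lower by -2.42 ± 0.35.

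Proliferation genes differed little. Of 29 mitotic genes 3 were higher and 2 lower (median 0.04), and Mki67, which dividing cells express, had 10.61, 10.68 and 10.73 in 66cl4 against 10.29, 10.60 and 10.61 in 67NR tumours. That difference did not pass (0.17 ± 0.16, adjusted p = 0.446). Of 32 replication genes 7 were higher and 0 lower, with Tk1, encoding thymidine kinase, at 1.81 ± 0.22 and Ccnd2 at 0.99 ± 0.13. Cell cycle inhibitors and p53 targets were higher for 7 and lower for 7 of 23. Cdkn2a, encoding p16 and p19ARF, had 6.29, 6.90 and 6.68 in 67NR and was not above background in 66cl4 (3.81, 4.09 and 3.87), at least 3.28-fold lower. Its neighbour Mtap was higher by 1.66 ± 0.14. The p53 targets Mdm2, Phlda3 and Ccng1 were lower by -0.86 ± 0.10, -1.46 ± 0.16 and -0.64 ± 0.15, and Cdkn1a did not pass (-0.33 ± 0.28).

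Patterning and adhesion genes set the lines apart in single members. Of 17 Hox genes tested 4 were higher and 2 lower. Hoxa10 had 6.80, 7.28 and 7.01 in 66cl4 and was not above background in 67NR tumours (4.11, 3.82 and 3.89), at least 4.26-fold higher, while the neighbouring genes Hoxa9 and Hoxa7 did not pass (0.08 ± 0.12 and 0.23 ± 0.15). Of 9 protocadherin genes 2 were higher and 4 lower. Pcdh17 had 9.56, 9.10 and 10.45 against 6.01, 6.22 and 6.22 (3.55 ± 0.27), and Pcdh7 was at least 10.4-fold lower and not above background in 66cl4. Among imprinted and IGF axis genes 3 were higher and 9 lower of 23, led by Igfbp3, the main carrier of IGF in blood, at 9.02, 9.04 and 8.11 against 12.45, 12.32 and 12.34 (-3.65 ± 0.26, adjusted p = 7.86e-06). The imprinted gene Mest was lower by -2.53 ± 0.24.

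Differences were spread unevenly over chromosomes. On the X chromosome 47% of 389 tested genes were higher and 9.25% lower (median 0.37), and on chromosome 14 39.9% of 444 were higher (median 0.27). On chromosome 10 36.7% of 632 genes were lower (median -0.23), on chromosome 11 23.9% of 1122 (median -0.11) and on chromosome 15 21.9% of 544 (median -0.14). The medians of single arrays did not overlap between lines on any of these 5 chromosomes. The same held on chromosomes 1, 3, 8, 9, 12, 13, 16 and 18, so it does not set the 5 apart. On chromosomes 3 and 8, 28.7% and 27% of genes were higher (medians 0.08 and 0.12). Divided along its length into 4 blocks of 158 genes, chromosome 10 had a median of 0.04 in the block nearest its start and of -0.25, -0.31 and -0.37 in the others. Xist, the RNA of the inactive X chromosome, did not pass (-0.65 ± 0.30, adjusted p = 0.12).

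**Figure D5:**
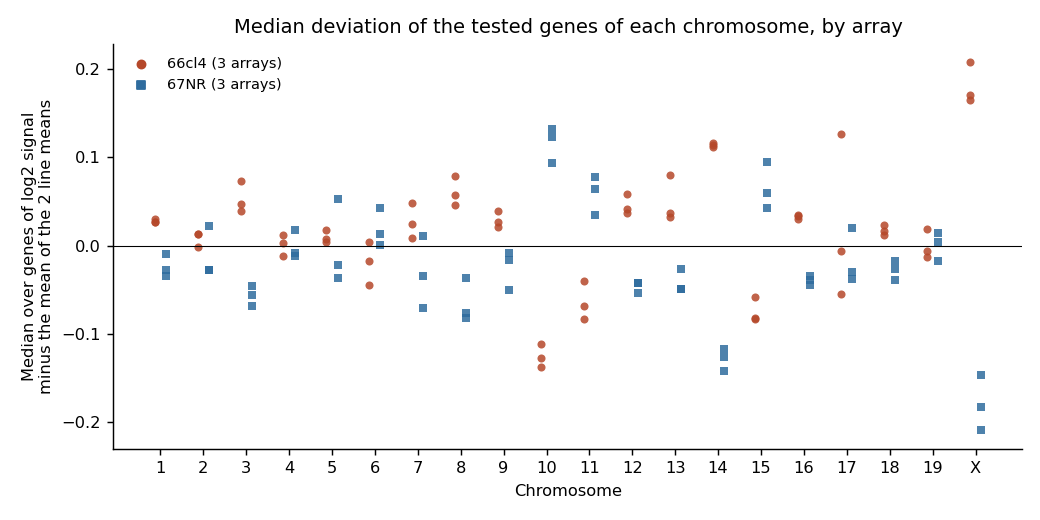
Median over the tested genes of each chromosome (horizontal axis) of the log2 signal minus the mean of both line means (vertical axis), one point per array, circles for 66cl4 and squares for 67NR. The lines mirror each other by construction; X and chromosome 14 lie highest and chromosome 10 lowest in 66cl4, and on chromosome 17 array 2 of 66cl4 stands apart at 0.13.

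Neighbouring genes were read in windows of 15 tested genes. The window with the highest median lay on chromosome 19, from Slc25a28 to Slf2, with a median difference of 1.41 and 14 of 15 genes higher. It holds Scd1, Scd2 and Hif1an, which inhibits the hypoxia factor HIF1 (1.51 in the same direction), beside genes of unrelated role such as Bloc1s2 (2.18) and Erlin1 (1.61). The granzyme cluster on chromosome 14 lay in a window with 11 of 15 genes higher, among them Zmym2 (1.31) and Mphosph8 (1.02), which are no granule genes. The lowest window, on chromosome 17 from H2-Oa to Notch4, held the class II and transporter genes, with a median of -1.78 and 11 of 15 genes lower. A window on chromosome 6 held the Gimap cluster of lymphocyte GTPases, with 8 of 15 genes lower, among them Gimap4 (-2.39) and Gimap6 (-1.71). Gimap1 (-0.74) and Gimap9 (0.31) did not pass. On chromosome 10 a stretch from E2f7 to Tmem19 had 13 of 15 genes lower. Its differences ran from Osbpl8, which did not pass at -0.25, to Caps2, at least 5.04-fold lower.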

How the data were processed

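Total RNA of tumours was hybridised to Affymetrix mouse whole-genome arrays. The log2 values are those the authors deposited. Their scale was read from the values, and the summarisation and normalization are not given in the sources used here. Of 45101 probe sets, 34945 have 1 gene in the platform annotation, 932 have several and 9224 are unnamed here. Gene symbols were updated through RefSeq for 34741. Each of 18193 genes was read from its brightest probe set. Genes above their array's 40th percentile on at least 3 of the 9 arrays were tested by limma's moderated model (version 3.58.1, R 4.3.3) with 6 residual degrees of freedom, Benjamini-Hochberg adjustment over 13409 genes and a threshold of 0.05. The p-values rest on the spread between 3 mice per line, and the number of arrays limits the precision. "Over all probe sets" marks a second fit of every probe set. On simulated data, changes of 0.5, 1 and 2 on the log2 scale were set for 67, 67 and 66 of 13409 genes. The test recovered 25.4%, 80.6% and 100% of these changes, with 6 false calls. The Benjamini-Hochberg adjustment depends on the share of genes changed, and recovery at a share such as the 36.1% called here was not tested.

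Named are 25 genes at each end of the called differences whose lines do not overlap, up to 6 list members by p, every member of short lists, members whose role is the point, and Cdh1, Cdh2, Krt8, Krt18, Epcam, Vim and Fn1. The gene lists, and the genes compared, were chosen with earlier results of these data known. Window genes, and probe sets that disagree, were chosen after their values were seen. The file numbers in the labels, whose meaning is not stated, and the hybridization controls were tried as covariates, beside other filters, scalings and probe set rules. The file numbers were 103, 171 and 192 for 66cl4 and 212, 222 and 232 for 67NR. File order and line therefore cannot be told apart among these 6 arrays.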

Additional observations from a re-analysis of the deposited data

How the results depend on the processing

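Across all alternatives run, the sum of calls lay within 1.5 times that reported and among the tested genes of the lists or named by rule the direction of 4 called genes turned. With the second brightest probe set these were Notch2 (-0.13), Lta4h (0.035) and Fgf11 (-0.025), and with the mean of the probe sets Ehd2 (-0.14), each without passing the test. Mb, not called at first, was called lower with the second brightest probe set (-0.38, adjusted p = 0.0331, limma). The smallest number of calls was 1975 higher and 1628 lower, with the second brightest probe set per gene, and the largest 2982 higher and 2351 lower, with the 6 arrays alone. The file number as a covariate gave 2184 and 1598, of which 3315 were among the 4838 calls, and the hybridization control 2205 and 1653 (3680 shared). Centring each array on its 75th percentile gave 2281 higher and 2427 lower and moved the median difference of all genes to -0.05. Leaving out 1 array kept 3751 to 3962 of the calls, and of the called genes of the lists or named above 84.7% to 89.1% kept their call. Arrays with the same replicate number correlated at 0.16, 0.07 and -0.06 in their deviations, and arrays with unlike numbers at -0.18 to 0.14. With 3 arrays per line these values cannot decide whether the numbers pair the samples. A replicate block gave 2510 higher and 1993 lower calls, 4372 of them shared. With the file number, a count of members moved by more than 1.5 times in at least 1 direction in 34 of 74 lists, among them tissue-resident macrophages (5 of 17 higher), p53 targets (3 of 23 lower) and interferon signalling (6 of 28 lower). The number was 28 with the hybridization control, 27 with the second brightest probe set and 16 to 23 without 1 array. The cause was not tested. Chromosome medians, whose alternatives were chosen after seeing the data, stayed between -0.29 and -0.21 for chromosome 10 and between 0.31 and 0.48 for X.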

Other observations

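Chromosome 17 differed within 66cl4. Its tested genes had array medians of -0.01, 0.13 and -0.05, relative to the mean of both lines, on 66cl4 arrays 1 to 3. Array 2 was the highest of the 3 for 415 of 669 genes (62%), against 34.7% over all chromosomes.

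B and plasma cell genes were called for 0 of 8 members by limma, with a median difference of -0.49, while 3 were lower with the 6 arrays alone and 1 was higher without 66cl4 replicate 3. The antibody chain gene Ighm averaged 7.74 ± 0.62 (SD, n = 3) in 66cl4 and had 11.23, 9.67 and 12.10 in 67NR tumours, so that the lines did not overlap while 67NR spread widely (adjusted p = 0.0678).

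Of 2421 called genes with a second tested probe set, 1483 had another called in the same direction and 13 had one called in the opposite direction, among them Ahnak, Ehd2 and Pcdh19.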
